A study of Gallus gallus with 6 samples.

Results

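The cadherin superfamily of the chicken ileum was followed in 43 of the 17623 genes listed for 6 RNA sequencing libraries. Genes were taken where the symbol in the deposited table, in upper case, begins with CDH and a digit, PCDH, CDHR, FAT and a digit, DCHS, DSC or DSG and a digit, or CELSR. The ileum, the distal small intestine, came from Taiping chickens aged 2 months, and all 6 libraries are labelled male. In the 3 CT libraries the birds ate a corn-soybean basal diet. In the 3 MP_FOS libraries the birds had the same diet, and each litre of their water carried 2 mL of probiotics and 1 mL of fructo-oligosaccharide, a short fructose chain that gut bacteria ferment. Members were placed in 4 classes by the tissue in which they are best known, giving 10 epithelial, 2 endothelial, 8 mesenchymal and 23 neural genes. All CDHR genes were counted as epithelial, whichever tissue each is best known from. Many members are expressed in more than 1 tissue, so the class names a usual site and not a measured one.

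Cadherins are membrane proteins that bind calcium and hold neighbouring cells together, mostly by pairing with the same cadherin on the next cell. Classical cadherins reach the actin cytoskeleton through catenins, and desmosomal cadherins reach keratin filaments through plakoglobin, plakophilins and desmoplakin. In the gut epithelium E-cadherin (CDH1) forms the adherens junctions, and the protocadherins CDHR2 and CDHR5 link the tips of microvilli in the brush border. Other members mark the vessel lining, the fibroblasts of the gut wall, or nerve and glial cells. Fat and Dachsous are giant cadherins that bind each other across cells.

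Library totals ran from 11833015 counts in MP_FOS replicate 3 to 18106651 counts in CT replicate 3. A single read weighed 0.0531 to 0.0843 CPM, the read count scaled to a common library size. Although all libraries are labelled male, the replicates numbered 2 of both diets held at most 3 reads of each of 3 W-linked genes (W is the chromosome of hens), and the other 4 libraries held at least 175. Values without both of these libraries are given beside the class medians and the members that rest on either of them. The labels do not say that each replicate is a separate bird. By their W-linked reads, the libraries numbered 2 do not repeat the same material as the other libraries of their diet. Whether replicates 1 and 3 of a diet are separate birds is not given. The p-values reflect only how these samples vary, which may be partly technical. Per-library values are normalised CPM, in the order of replicates 1, 2 and 3. Levels of different genes are compared in FPKM, which the authors scaled to transcript length. Log2 fold changes are MP_FOS minus CT from edgeR's quasi-likelihood test with the standard error (SE), and adjusted p-values are Benjamini-Hochberg over all 13774 genes tested.

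The epithelial class held 89.7% of the summed FPKM of all members, the mesenchymal class 6.38%, the neural class 2.66% and the endothelial class 1.3%. CDH1 and CDH17 (liver-intestine cadherin) were the most abundant members, with mean FPKM of 392 and 390 over the 6 libraries, and their order was not distinguishable because their libraries overlapped widely. CDHR2 (202), Cdhr5 (174), DSG2 (81.8) and PCDH1 (32.0) followed. The ranges of CDHR2 and Cdhr5 overlapped, and so did those of PCDH1 and CDH13. The most abundant members outside the epithelial class were CDH13 (27.0), FAT1 (24.6), PCDHGC3 (20.8), CDH11 (18.9) and CDH5 (16.4), neighbours that overlapped over the 6 libraries. In all, 24 members had a mean of at least 1 FPKM and 11 a mean of at least 10 FPKM. CDH8 and CDH9, cadherins of the brain, had 0 counts in every library, which allows up to 3 counts in each, or 0.159 to 0.253 CPM. This limit covers counting error only.

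**Figure D1:**
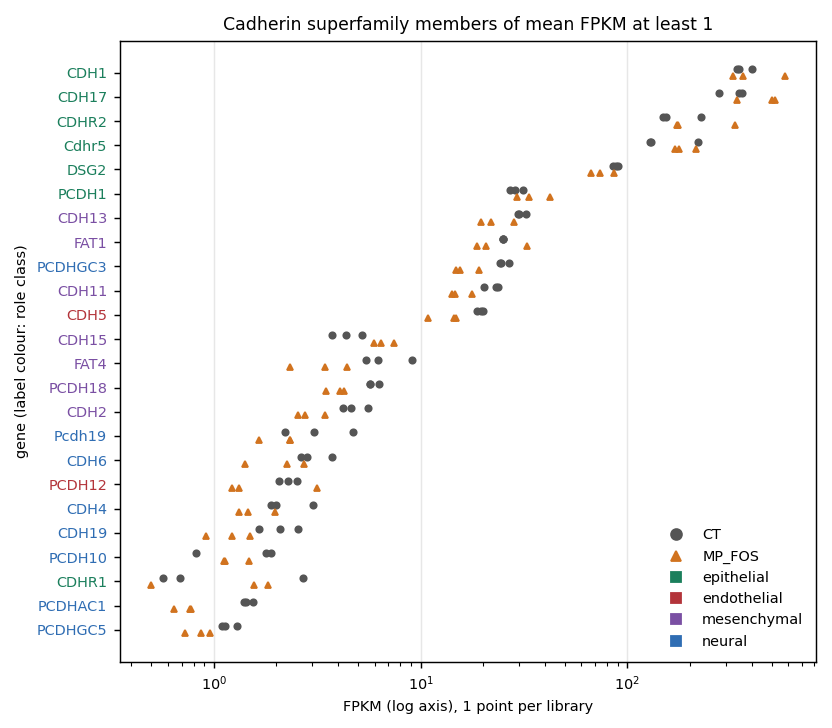
Deposited FPKM (log axis) of the 24 members with a mean of at least 1 FPKM, with 1 point per library, grey circles for CT and orange triangles for MP_FOS. The epithelial genes CDH1, CDH17, CDHR2, Cdhr5, DSG2 and PCDH1 occupy the top of the scale, and in CDH11, CDH5, FAT4, PCDH18 and CDH2 the MP_FOS points lie left of all CT points.

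Between diets, epithelial members leaned higher in MP_FOS and endothelial, mesenchymal and neural members leaned lower, but no member passed the test. Of the 43 members 38 passed the low-count filter. The other 5, Cdhr3, FAT2, CDH7, CDH8 and CDH9, had at most 40 counts in all libraries together. With edgeR 0 of the 38 reached an adjusted p of 0.05 (smallest adjusted p = 0.445, Benjamini-Hochberg), as did 0.0% of all tested genes. At an unadjusted p under 0.05 there were 11 members, 9 lower and 2 higher. Over all tested genes 10.6% had such a p, 4.86% lower and 5.72% higher. DESeq2 called 0.778% of the genes it adjusted and no member, and limma-voom called no gene. Without MP_FOS replicate 1 edgeR called 1.59% of genes, again with no member.

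Fitted fold changes were below 0 in 26 of the 38 tested members, or 68.4%, against 48.5% of all tested genes. The median log2 fold change of the tested members was −0.29 (quartiles −0.50 to 0.23), and that of all tested genes was 0.01 (quartiles −0.20 to 0.20). In 12 members, 31.6%, all MP_FOS libraries lay below all CT libraries, which occurred in 8.49% of tested genes. The reverse held for 2 members, CDH17 and the row named CDH15, against a background of 8.2%. In either direction this makes 14 members, against 16.7% of all tested genes. Member medians against the CT mean were −0.18, −0.27 and −0.41 in MP_FOS replicates 1, 2 and 3. With both libraries numbered 2 left out, 25 of 38 members were below 0 and the median was −0.34, whereas without MP_FOS replicate 3 the median was −0.11.

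Long transcripts leaned the same way. The median transcript length of tested members, taken from the ratio of count to FPKM, was 3621 bases, and 26 of them fell among the longest 3444 of all tested genes. Among those 3444 the median log2 fold change over all genes was −0.06, and 13.4% of genes had MP_FOS libraries below all CT libraries, as had 8 of the 26 members. The median of these 26 members was −0.28. In the next longest 3443 genes the median was 0.02 over all genes and −0.38 over the 11 members there. Of those genes 8.1% had MP_FOS libraries below all CT libraries, as had 4 of the 11 members. The part of transcript length in the members' values was not tested.

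**Figure D2:**
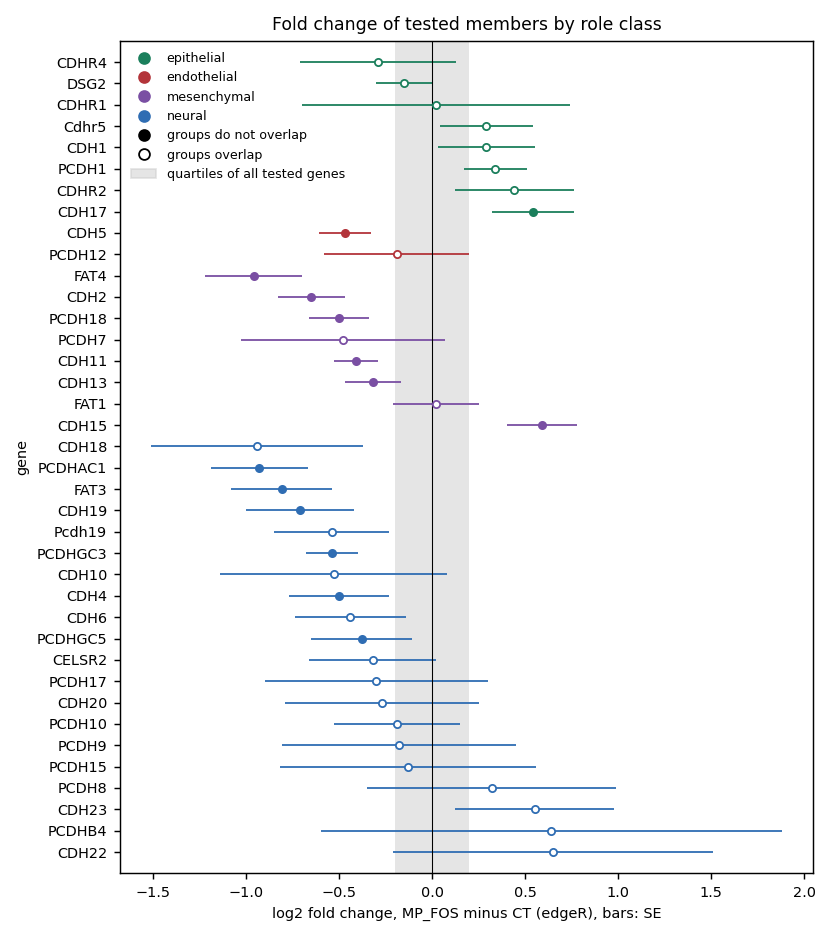
Log2 fold change (MP_FOS minus CT, edgeR) of the 38 tested members, grouped and coloured by class, with bars of 1 SE; filled points mark genes whose CT and MP_FOS libraries do not overlap, and the grey band holds the middle quartiles of all tested genes (−0.20 to 0.20). The 12 filled points left of 0 are endothelial, mesenchymal or neural, and the 2 to the right are CDH17 and the row named CDH15.

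Among the epithelial cadherins the MP_FOS means were higher in most genes, but the libraries overlapped in all tested members except CDH17. Of 8 tested members 6 were above 0 and 2 below, with a median log2 fold change of 0.29. CDH17 (ENSGALG00000035094), a cadherin of enterocytes with a short cytoplasmic tail, had 1031, 1033 and 795 CPM in CT and 1037, 1573 and 1536 CPM in MP_FOS. MP_FOS replicate 1 thus stood barely above the CT libraries, and the other 2 clearly above them. Its log2 fold change was 0.54 ± 0.22 (unadjusted p = 0.0403, adjusted p = 0.468, edgeR). On the FPKM scale its groups overlapped, and over all alternatives its smallest adjusted p was 0.11, without MP_FOS replicate 1 (edgeR).

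CDH1 (ENSGALG00000000608), E-cadherin, had 1198, 1447 and 1177 CPM in CT and 1342, 2179.8 and 1161 CPM in MP_FOS. MP_FOS replicate 2 was the highest library and MP_FOS replicate 3 the lowest, so the groups overlapped fully. The log2 fold change of 0.29 ± 0.26 became −0.03 without MP_FOS replicate 2 and 0.08 with both libraries numbered 2 left out.

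The brush border protocadherins behaved alike in level but not by library. CDHR2 (ENSGALG00000003285) had 599, 916 and 575 CPM in CT and 718, 1399 and 709 CPM in MP_FOS, so that the library numbered 2 was the highest in each diet. The log2 fold change of 0.44 ± 0.32 dropped to 0.03 when MP_FOS replicate 2 was left out, and to 0.29 when CT replicate 2 was left out as well. Its partner Cdhr5, an assembled locus in the table, had 521, 925 and 528 CPM in CT and 735, 783 and 902 CPM in MP_FOS (0.29 ± 0.25). Here CT replicate 2 was the highest of all 6 libraries, and without it the log2 fold change was 0.62, and 0.65 with both libraries numbered 2 left out.

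PCDH1 (ENSGALG00000002553), a protocadherin of epithelia, averaged 108 ± 9.80 CPM in CT and 137 ± 29.0 CPM in MP_FOS (SD, n = 3), a log2 fold change of 0.34 ± 0.17, with 1 MP_FOS library inside the CT range. DSG2 (ENSGALG00000015142), the desmoglein of simple epithelia, went the other way, with 301, 323 and 316 CPM in CT and 324, 282 and 242 CPM in MP_FOS. MP_FOS replicates 2 and 3 were its lowest libraries, and the log2 fold change was −0.15 ± 0.15. MP_FOS replicate 1 stood barely above CT replicate 2 in CPM. In FPKM that library (86.3) lay below CT replicates 2 (88.36) and 3 (90.02). On the CPM scale, replicate 2 was the highest CT library in CDH1, CDH17, CDHR2, Cdhr5, DSG2 and PCDH1, in CDH17 by a narrow margin. On the FPKM scale this did not hold for CDH17, highest in CT replicate 1, or for DSG2, highest in CT replicate 3.

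Epithelial markers went both ways. Of 11 markers 7 were above 0 and 4 below, with a median log2 fold change of 0.26. The highest were CLDN3 (0.61), VIL1 (0.56) and EPCAM (0.43), and the 4 below 0 were FABP2 (−0.38), HNF4A (−0.38), CDX2 (−0.30) and ANPEP (−0.12). Their summed level was 11272 to 13955 CPM in CT and 9945 to 14907 CPM in MP_FOS, with none at 0 in all libraries. ANPEP was the largest part of the sum in every library, so ratios to it depend strongly on ANPEP. It had 6229, 8649.8 and 7071 CPM in CT and 8293, 6708 and 5249 CPM in MP_FOS. CDH17 stood at 70.5 to 90.9 CPM per 1000 CPM of these markers in CT and at 76.0 to 154 in MP_FOS, so the groups overlapped. The corresponding level of CDH1 was 104 to 106 in CT and 98.3 to 146 in MP_FOS. In bulk tissue, fewer cells of a type and less RNA per cell cannot be told apart. Without MP_FOS replicate 2 the epithelial class had a median of 0.00, and with both libraries numbered 2 left out it had a median of 0.27.

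CDH5 (ENSGALG00000032349), VE-cadherin, which seals the junctions between endothelial cells, was lower in every MP_FOS library. It had 87.4, 88.8 and 82.1 CPM in CT and 69.0, 51.9 and 65.7 CPM in MP_FOS, so the CT libraries were tightly grouped and all lay above the MP_FOS ones. The log2 fold change was −0.47 ± 0.14 (unadjusted p = 0.0118, adjusted p = 0.445, edgeR), and −0.56 to −0.35 when 1 library was left out. It was −0.33 (unadjusted p = 0.0687, edgeR) with both libraries numbered 2 left out. PCDH12 (ENSGALG00000002544), a protocadherin of endothelium, had 6.79, 7.77 and 8.29 CPM in CT and 11.1, 4.69 and 4.21 CPM in MP_FOS. MP_FOS replicate 1 was its highest library and the other 2 its lowest, and its log2 fold change of −0.19 ± 0.39 became −0.78 without that replicate (adjusted p = 0.162, edgeR). With both libraries numbered 2 left out it was 0.04, and the median of CDH5 and PCDH12 was −0.14 in place of −0.33.

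Other markers of blood endothelium were lower alongside CDH5. Of 12 markers, 11 were below 0, with a median log2 fold change of −0.42. Their summed level was 622 to 654 CPM in CT and 393 to 548 CPM in MP_FOS, and none was at 0 in all libraries. VWF was the largest part of the sum in every library. Per 1000 CPM of these markers, CDH5 stood at 125 to 143 CPM in CT and 126 to 151 CPM in MP_FOS, so relative to the endothelial markers its groups overlapped. The phosphatase PTPRB, which binds VE-cadherin in endothelium, had 60.1, 64.3 and 59.3 CPM in CT and 36.7, 38.4 and 41.5 CPM in MP_FOS, with no overlap (−0.66 ± 0.11, unadjusted p = 0.000548, adjusted p = 0.445, edgeR). DESeq2 called PTPRB (adjusted p = 0.0038) and, of the endothelial markers, CD93 alone (log2 fold change −0.83, adjusted p = 0.00138). PTPRB and the markers are not members of the superfamily.

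Mesenchymal cadherins were the class most often separated between the diets. In 6 of 8 tested members the groups did not overlap, 5 of them lower in MP_FOS and 1, the row named CDH15, higher. Over all tested genes 16.7% did not overlap, 8.49% lower and 8.2% higher. The median log2 fold change was −0.45, or −0.48 without the row named CDH15. The class medians of MP_FOS replicates 1, 2 and 3 against the CT mean were −0.45, −0.43 and −0.41. With both libraries numbered 2 left out the class median was again −0.45.

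FAT4 (ENSGALG00000011823), the giant cadherin that receives Dachsous on neighbouring cells, had 89.3, 82.0 and 131 CPM in CT and 67.3, 36.8 and 51.6 CPM in MP_FOS. All MP_FOS libraries lay below all CT libraries, though both groups were spread widely. The log2 fold change was −0.96 ± 0.26 (unadjusted p = 0.00798, adjusted p = 0.445, edgeR), a fold of 0.515. It ran from −1.20 to −0.72 when 1 library was left out, and DESeq2 gave an adjusted p of 0.0721.

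CDH2 (ENSGALG00000015132), N-cadherin, known from mesenchymal and neural cells, had 14.5, 13.7 and 17.3 CPM in CT and 9.14, 8.73 and 11.0 CPM in MP_FOS (−0.65 ± 0.18). CDH11 (ENSGALG00000039985), the cadherin of fibroblasts, had 70.2, 62.6 and 69.2 CPM in CT and 46.3, 49.6 and 56.0 CPM in MP_FOS (−0.41 ± 0.12). PCDH18 (ENSGALG00000009732), a protocadherin, had 20.5, 23.7 and 20.5 CPM in CT and 16.5, 16.0 and 13.1 CPM in MP_FOS (−0.50 ± 0.16). In these 3 genes the groups were compact and did not overlap, with unadjusted p-values of 0.00816, 0.0124 and 0.0133 and an adjusted p of 0.445 each (edgeR). Leaving out any library kept the log2 fold change of CDH2 between −0.76 and −0.55, of CDH11 between −0.49 and −0.36, and of PCDH18 between −0.58 and −0.41.

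CDH13 (ENSGALG00000005483), T-cadherin, which is anchored to the membrane by lipid and occurs on smooth muscle and endothelium, had 113, 127 and 113 CPM in CT and 79.8, 90.7 and 112 CPM in MP_FOS. MP_FOS replicate 3 nearly reached the CT libraries, and the log2 fold change was −0.32 ± 0.15 (unadjusted p = 0.0731, edgeR). FAT1 (ENSGALG00000013579), found in both epithelium and mesenchyme, had 359, 370.2 and 354 CPM in CT and 315, 509 and 276 CPM in MP_FOS. Its CT libraries lay close together between widely spread MP_FOS libraries, and its log2 fold change of 0.02 ± 0.23 turned to −0.29 without MP_FOS replicate 2, to −0.27 with both libraries numbered 2 left out and to −0.10 on log2(FPKM + 1). The row named CDH15 (ENSGALG00000030040), the cadherin of skeletal muscle, was higher without overlap, at 12, 9.10 and 9.88 CPM against 13.7, 17.9 and 15.0 CPM (0.59 ± 0.19, unadjusted p = 0.0155, adjusted p = 0.448, edgeR). Its description and NCBI gene identifier belong to ACSF3, an enzyme gene next to CDH15 in the reference annotation, so the values cannot be assigned to CDH15.

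Fibroblast markers were lower alongside this class, whereas smooth muscle markers were level. Of 10 fibroblast markers 9 were below 0 (median log2 fold change −0.32), their sum was 4780 to 5003 CPM in CT and 3241 to 4636 CPM in MP_FOS, and none was at 0 in all libraries. DESeq2 called PI16 alone of these markers (−1.23, adjusted p = 0.000163). The sum is mostly COL3A1. CDH11 stood at 12.5 to 14.7 CPM per 1000 CPM of these markers in CT and at 10.7 to 17.3 in MP_FOS, FAT4 at 16.4 to 27.2 and 7.94 to 17.3, and CDH2 at 2.73 to 3.59 and 1.88 to 3.41. These relative levels overlapped between the diets. That of PCDH18 stood at 4.25 to 4.74 in CT and 3.45 to 4.24 in MP_FOS, so its groups all but touched. The 9 smooth muscle markers had a median of 0.02 (log2 fold change), and they summed to 6185 to 8693 CPM in CT and 5883 to 9034 CPM in MP_FOS.

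**Figure D3:**
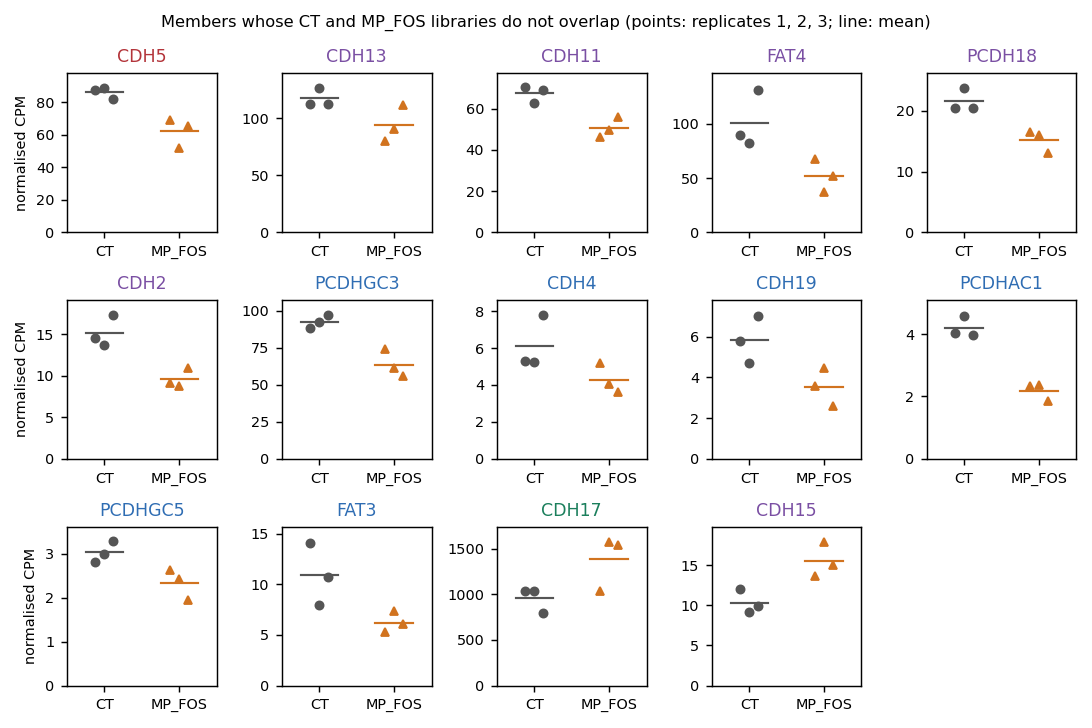
Normalised CPM of the 14 members whose CT (grey circles) and MP_FOS (orange triangles) libraries do not overlap, with replicates 1, 2 and 3 from left to right and a line at the group mean; each axis starts at 0. FAT4 and PCDHAC1 show folds of 0.515 and 0.523, while in CDH13, CDH4 and CDH17 the nearest libraries of the diets almost touch.

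Neural cadherins other than PCDHGC3 (mean 20.8 FPKM) were low in the ileum, and most of the class was lower in MP_FOS. Of 20 tested members of the class 16 were below 0 and 4 above, 6 of the 16 with no overlap, and the median log2 fold change was −0.35. Over all tested genes 48.5% were below 0, and 8.49% were lower with no overlap. The class medians of MP_FOS replicates 1, 2 and 3 against the CT mean were −0.23, −0.27 and −0.69, so replicate 3 was the furthest from CT. MP_FOS replicate 3 was also the library with the fewest counts (11833015), and the part of depth in its values was not tested. Without MP_FOS replicate 3 the class median was −0.19, and with both libraries numbered 2 left out it was −0.46.

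As a family, clustered protocadherins help to give single neurons their surface identity in vertebrates, though not every member need do so. Genes of 1 cluster can share their last exons. What the clustered members do in the ileum was not measured. PCDHGC3 (ENSGALG00000028565), the most abundant of them, had 88.4, 92.1 and 97.3 CPM in CT and 74.0, 61.2 and 55.8 CPM in MP_FOS. The groups lay well apart, and its unadjusted p of 0.00572 was the smallest of any member (−0.54 ± 0.14, adjusted p = 0.445, edgeR). Without MP_FOS replicate 1 its adjusted p was 0.0609 (edgeR). The description of this row names PCDHGA2, its neighbour in the cluster, so the reads may come from more than 1 gene.

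PCDHAC1 (ENSGALG00000052653), of the alpha cluster, had 4.02, 4.58 and 3.98 CPM in CT and 2.33, 2.38 and 1.85 CPM in MP_FOS. All MP_FOS libraries were clearly below CT, at a fold of 0.523 (−0.93 ± 0.26, unadjusted p = 0.00786, adjusted p = 0.445, edgeR). PCDHGC5, next to PCDHGC3, also did not overlap, at 3.04 ± 0.237 CPM against 2.33 ± 0.355 CPM (SD, n = 3; −0.38 ± 0.27). Leaving the clustered rows out of the class changed its median from −0.35 to −0.31.

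FAT3 (ENSGALG00000017229), a Fat cadherin of neurons in mouse, had 14.1, 8.0 and 10.7 CPM in CT and 5.25, 7.36 and 6.07 CPM in MP_FOS (−0.81 ± 0.27, unadjusted p = 0.0179, adjusted p = 0.450, edgeR). CT replicate 2 was close to the MP_FOS libraries. CDH19 (ENSGALG00000013775), a cadherin of Schwann cell precursors and glia, had 5.77, 4.70 and 7.01 CPM in CT and 3.58, 4.45 and 2.61 CPM in MP_FOS (−0.71 ± 0.29, unadjusted p = 0.0444, adjusted p = 0.471, edgeR). CDH4 (ENSGALG00000005102), R-cadherin, had 5.29, 5.22 and 7.76 CPM in CT and 5.19, 4.04 and 3.62 CPM in MP_FOS. The groups of CDH19 and CDH4 were adjacent rather than far apart, and those of CDH4 overlapped on the FPKM scale. The log2 fold change of CDH4 was −0.50 ± 0.27, and −0.29 without CT replicate 3.

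CDH6 (ENSGALG00000012917), a cadherin of neural crest in chick, averaged 8.0 ± 1.46 CPM in CT and 5.89 ± 1.93 CPM in MP_FOS (SD, n = 3; −0.44 ± 0.30), and Pcdh19 (ENSGALG00000006822), a protocadherin of neurons, 13.2 ± 4.97 CPM and 9.08 ± 2.03 CPM (−0.54 ± 0.31). Both overlapped between the diets. For Pcdh19 the CT mean rested on replicate 2, and without it the log2 fold change was −0.20, and −0.30 with both libraries numbered 2 left out. The other tested neural members with less than 1 FPKM, such as CDH18, CDH23 and CDH22, ran from −0.94 to 0.65, with SEs of up to 1.24 (PCDHB4). The 0.65 of CDH22 became −0.02 with limma-voom.

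Enteric neuron markers were lower as well. All 11 tested markers were below 0 (median log2 fold change −0.58), with sums of 135 to 140.2 CPM in CT and 73.5 to 119.5 CPM in MP_FOS and none at 0 in all libraries. Per 1000 CPM of these markers PCDHGC3 stood at 656 to 723 CPM in CT and 619 to 759 CPM in MP_FOS, and FAT3 at 57.0 to 104 and 44.0 to 82.6, both overlapping. PCDHAC1 stood at 29.6 to 32.7 CPM in CT and 19.5 to 26.1 CPM in MP_FOS and did not overlap. The mean of PCDHGC3, 20.8 FPKM, was above that of every tested neuron marker except VIP (36.0). UCHL1 had 11.2 FPKM and SYT1 0.987. The ratio of PCDHGC3 to these markers therefore does not show that its reads came from neurons, and their source was not tested. Of 6 tested glial markers 5 were below 0, with a median of −0.07 and a sum, mostly ERBB3, of 312 to 354 CPM in CT and 291 to 412 CPM in MP_FOS. Per 1000 CPM of this sum CDH19 stood at 13.3 to 21.2 CPM in CT and 8.7 to 12.4 CPM in MP_FOS and did not overlap. This ratio mainly sets CDH19 against ERBB3, with a mean of 66.6 FPKM where SOX10 had 2.0. It therefore does not give the level of CDH19 relative to the other glial markers. The part of cell composition in any of these values was not tested.

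**Figure D4:**
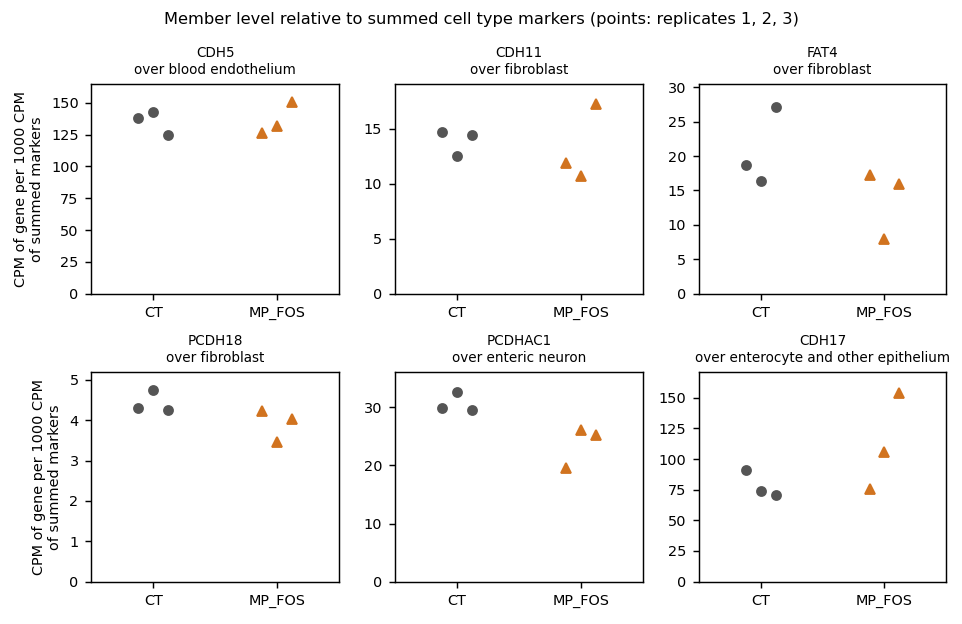
CPM of 6 members per 1000 CPM of the summed markers of the cell type named above each panel, with replicates 1, 2 and 3 from left to right; each axis starts at 0. CDH5 over endothelial markers is 125 to 143 in CT and 126 to 151 in MP_FOS, while PCDHAC1 over neuron markers is 29.6 to 32.7 in CT and 19.5 to 26.1 in MP_FOS.

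The genes of proteins that cadherins work with mostly overlapped between the diets. None passed edgeR over all genes, and DESeq2 called PTPRB alone among them. Of 16 tested catenin and plaque genes 7 were above 0 and 9 below, with a median log2 fold change of −0.04. CTNNB1 (beta-catenin, 0.12 ± 0.17) and CTNNA1 (alpha-catenin, 0.09 ± 0.17) overlapped fully between the diets. EVPL (envoplakin, a keratin linker, −0.73 ± 0.26) and CTNNA2 (neural alpha-catenin, −0.44 ± 0.18) had the smallest unadjusted p-values of this list, 0.0254 and 0.0423, and neither overlapped between the diets. CTNNA2 had 11.1, 13.2 and 12.6 CPM in CT and 9.97, 9.26 and 8.01 CPM in MP_FOS.

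The desmosomal plaque genes PKP2 and DSP, partners of DSG2 and named here after their values were seen, had their lowest values in MP_FOS replicates 2 and 3, as DSG2 had. PKP2, a plakophilin, had 109.8, 88.9 and 99.0 CPM in CT and 98.6, 32.0 and 29.4 CPM in MP_FOS (−0.89 ± 0.45). DSP, desmoplakin, had 644, 694 and 553 CPM in CT and 587, 403 and 395 CPM in MP_FOS (−0.45 ± 0.20). In both genes MP_FOS replicate 1 lay within the CT range and replicates 2 and 3 below it. The other plaque genes JUP (plakoglobin), PKP3 and PKP4 showed no such division. JUP had 586, 697 and 444 CPM in MP_FOS, PKP3 107, 134 and 68.0 CPM and PKP4 97.0, 107 and 101 CPM, and the groups overlapped in each. The division was not particular to desmosomal genes. Replicates 2 and 3 of MP_FOS, but not replicate 1, also lay below all CT libraries in FABP2 (957, 243 and 249 CPM in MP_FOS), HNF4A (94.5, 43.9 and 38.9) and VIP (43.6, 15.4 and 18.4). The share of all genes with this division was not counted.

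The 6 genes listed with the brush border protocadherin complex of CDHR2 and CDHR5 were all above 0, with a median of 0.21. Not all of them are parts of the complex, as MYO1A is a myosin of the brush border in general. CALML4 (0.18 ± 0.12), a light chain of the complex, had no overlap in CPM, but its groups overlapped on the FPKM scale. ANKS4B (0.23 ± 0.16), a scaffold, overlapped on either scale. Among the genes tied to Fat, Dachsous and planar polarity 6 of 7 were below 0 (median −0.15), with the smallest unadjusted p-values in FZD6 (−0.22 ± 0.18) and PRICKLE2 (−0.17 ± 0.15) and the lowest fitted value in FJX1 (−0.55 ± 0.64). The nectins NECTIN3 (0.17 ± 0.19) and NECTIN1 (−0.15 ± 0.22), and the proteases FURIN (0.13 ± 0.22) and NCSTN (−0.06 ± 0.14) that process cadherins or their fragments, overlapped between the diets. Of the 5 cadherin phosphatases 4 were below 0 (median −0.39), with PTPRB given above and PTPRJ at 0.38 ± 0.19.

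Among 5 transcription factors that repress CDH1, 3 were below 0 and 2 above (median −0.13). SNAI2 (Slug), which is also made by mesenchymal cells, had 13.0, 13.0 and 17.2 CPM in CT and 10.7, 7.90 and 10.8 CPM in MP_FOS, with no overlap (−0.56 ± 0.21, unadjusted p = 0.0310, edgeR). ZEB2 had a log2 fold change of −0.17 ± 0.15 and overlapped.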

How the data were processed

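The deposited gene table gives each library, per the file headers, a column of expected counts, 7.98% of them not whole, and a column of FPKM computed by the authors. Tools listed in the submitters' processing notes, without roles, are DESeq2, StringTie 1.3.1, HISAT2, Bowtie2 and fastp 0.18.0. Build, counting step and strand setting: not given in the sources used here. A small RNA library kit is named in the labels, although genes of all lengths are listed. No sequences or coordinates are printed.

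Rounded counts entered edgeR 4.0.16 under R 4.3.3 (filterByExpr by group, TMM, quasi-likelihood F test of MP_FOS against CT, two-sided, no block, threshold 0.05 on the adjusted p over 13774 genes). The code recovered known changes in simulated counts, where each changed gene differed by more than the fitted change of any member here. Recovery of changes as small as those of the members was not simulated. An SE is the size of a log2 fold change over the root of its F statistic. DESeq2 1.42.0 and limma 3.58.1 were other tools. Other alternatives were 2 other scalings, 2 other filters, a robust fit, log2 FPKM with a pseudocount of 1 or 0.1, a replicate block, W-linked reads as a covariate, an adjusted p of 0.1, added reference-symbol members, each library left out, and both libraries numbered 2 left out. Marker and class medians are descriptions, and class medians per library use log2(CPM + 0.5).

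The members, classes and lists were chosen with earlier results of these data known. Named were, per class, the 5 members of highest mean FPKM and the 4 of smallest unadjusted p, and per partner list the 2 genes of smallest p. PCDHGC5, CDH18, CDH22, CDH23, PCDHB4, PKP2, PKP3, PKP4, JUP, DSP, FJX1, CTNNB1 and CTNNA1 fall outside this rule. So do CDHR1, PCDH8, MYO1A, the untested Cdhr3, FAT2, CDH7, CDH8 and CDH9, and the rows added by reference symbol.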

Additional observations from a re-analysis of the deposited data

How the results depend on the processing

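No member was called under any alternative run. Over all genes, edgeR called 0, DESeq2 105, edgeR without MP_FOS replicate 1 called 223, and edgeR with both libraries numbered 2 left out called 1 (0 to 223 with 1 library left out). The number of members below 0, recomputed after seeing the data, was 23 to 28 with 1 library left out. The class medians with 1 library left out ran from −0.36 to −0.11 for all members, 0.00 to 0.51 for epithelial, −0.67 to −0.17 for endothelial, −0.47 to −0.36 for mesenchymal and −0.48 to −0.19 for neural members. On log2(FPKM + 1), which shrinks low genes by construction, the medians were −0.13 for all and −0.13 for neural members, and with W-linked reads as a covariate the mesenchymal median was −0.39. Single genes changed sign as follows, and the cause was not tested. PCDH12 ran from −0.78 to 0.05 with 1 library left out, being at 0.02 and 0.05 without MP_FOS replicates 2 and 3 and at 0.04 with both libraries numbered 2 left out. CDH1 ran from −0.03 (without MP_FOS replicate 2) to 0.47. FAT1 was at −0.04 with limma-voom, −0.02 with upper-quartile factors, −0.10 on both FPKM scales, −0.03 with W-linked reads as a covariate, −0.29 to 0.19 with 1 library left out (lowest without MP_FOS replicate 2) and −0.27 with both libraries numbered 2 left out. The labels do not say that replicate numbers pair the libraries. Correlations of deviations between the diets were 0.02, 0.28 and 0.16 for numbers 1, 2 and 3, and −0.23 to 0.12 between unlike numbers. Whether the numbers pair the libraries cannot be told from these values. With the replicate block no gene was called, the member median was −0.33 and FAT1 was at −0.03. Of members with little weight in the text, CDH22 went from 0.65 to −0.02 with limma-voom, PCDH8 from 0.32 to −0.07 with limma-voom and −0.08 on log2(FPKM + 0.1), and CDHR1 from 0.02 to −0.02 with upper-quartile factors.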

Other observations

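The table leaves the symbol blank in 6 rows whose NCBI gene identifier belongs to the superfamily, and 3 of them passed the low-count filter. DCHS1, the Dachsous cadherin that binds FAT4, had 19.7, 23.2 and 27.7 CPM in CT and 15.0, 16.9 and 12.2 CPM in MP_FOS. As in FAT4, every MP_FOS library lay below every CT library, and the log2 fold change was −0.67 ± 0.19 (unadjusted p = 0.00887, adjusted p = 0.445, edgeR). DSC1, a desmocollin, had 28.1, 35.1 and 16.5 CPM in CT and 26.7, 25.5 and 28.1 CPM in MP_FOS, and its MP_FOS libraries lay within the CT range (0.01 ± 0.26). PCDH11X, a neural protocadherin, had 3.72, 3.25 and 6.53 CPM in CT and 3.34, 2.79 and 3.29 CPM in MP_FOS, with overlap (−0.52 ± 0.33). With these rows added, 28 of 41 tested genes were below 0 and the median was −0.30.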
